A study of Mus musculus with 2 samples.

Results

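Smooth muscle cluster 6 was taken as the cells that the authors' deposited annotation places in the smooth muscle class (SMC) and in cluster number 6, with each barcode counted once. It held 433 of the 7917 cells, 246 in the EC-iDKO_Apoe_KO library and 187 in the Apoe_KO library, and the other smooth muscle clusters held 4161 cells of EC-iDKO_Apoe_KO and 1349 of Apoe_KO. Aortas came from mice on a western diet for 12 weeks, were digested with enzymes and were profiled by droplet sequencing of 3' tags, with 1 library per genotype and no replicate. All mice lacked Apoe, the apolipoprotein whose loss gives high plasma cholesterol and atherosclerosis on this diet. The tested mice also carried an inducible deletion of a pair of genes in endothelial cells; the labels do not name them, and from knowledge of the study they are the endocytic adaptors epsin 1 and epsin 2 (Epn1 and Epn2). The inducing agent, the Cre driver, the age and the number of pooled mice are not stated in the sources. The smooth muscle cells described here come from vessels whose deletion was directed at the endothelium. Clusters were made by the authors from the same expression values, so that every difference between cluster 6 and other clusters below is a description and not a test.

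Smooth muscle cells of the aorta form the contractile media. Their contractile genes are switched on by serum response factor with its partner myocardin, which bind the CArG box, and in mice the long noncoding RNA Carmn, host of the microRNA genes Mir143 and Mir145, strengthens that programme. Serum response factor with other partners also drives immediate early genes such as Fos and Egr1, which respond within minutes to growth factors, stretch, injury or the enzymatic release of cells from tissue. In atherosclerosis, smooth muscle cells can lose contractile transcripts and gain matrix and inflammatory ones, a state often called modulated.

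Because both gene groups on which the description below turns share a transcription factor, the promoters of their members were searched for the CArG box, and those that hold one are shown. Windows of 300 bases (250 before to 50 after the gene start) came from RefSeq on GRCm38.p6, 17 of 21 immediate early and 16 of 20 contractile genes had one, and the CArG box, which reads alike on both strands, was found in 2 of 17 and 3 of 16. It was held by 178 of 11059 matched genes among those counted, or 1.61%, and by 535 of all 32851 RefSeq windows, or 1.63%. The capitals mark the CArG box, each line runs 5' to 3' on the gene's strand, and Egr2 and Ldb3, which have 5 and 2 windows, are shown by the first listed.
Egr2 (GRCm38.p6, chr10:67537316-67537615, plus strand): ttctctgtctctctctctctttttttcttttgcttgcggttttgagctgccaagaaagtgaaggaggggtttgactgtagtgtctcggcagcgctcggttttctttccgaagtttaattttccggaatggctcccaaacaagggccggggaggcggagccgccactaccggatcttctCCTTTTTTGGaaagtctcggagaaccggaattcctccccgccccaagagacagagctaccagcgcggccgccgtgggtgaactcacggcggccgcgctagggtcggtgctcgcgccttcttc
Zfp36 (GRCm38.p6, chr7:28379179-28379478, minus strand): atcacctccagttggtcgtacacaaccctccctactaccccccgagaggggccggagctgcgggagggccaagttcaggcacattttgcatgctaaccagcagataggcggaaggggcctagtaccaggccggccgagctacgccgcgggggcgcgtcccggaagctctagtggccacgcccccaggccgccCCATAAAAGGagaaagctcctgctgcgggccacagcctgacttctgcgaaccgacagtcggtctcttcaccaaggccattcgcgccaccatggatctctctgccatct
Myl9 (GRCm38.p6, chr2:156775214-156775513, plus strand): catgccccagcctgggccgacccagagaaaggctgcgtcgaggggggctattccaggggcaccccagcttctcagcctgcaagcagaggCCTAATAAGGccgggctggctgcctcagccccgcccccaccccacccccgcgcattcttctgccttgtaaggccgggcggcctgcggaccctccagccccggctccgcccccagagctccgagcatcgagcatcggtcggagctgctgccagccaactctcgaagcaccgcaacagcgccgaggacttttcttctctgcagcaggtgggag
Vcl (GRCm38.p6, chr14:20929148-20929447, plus strand): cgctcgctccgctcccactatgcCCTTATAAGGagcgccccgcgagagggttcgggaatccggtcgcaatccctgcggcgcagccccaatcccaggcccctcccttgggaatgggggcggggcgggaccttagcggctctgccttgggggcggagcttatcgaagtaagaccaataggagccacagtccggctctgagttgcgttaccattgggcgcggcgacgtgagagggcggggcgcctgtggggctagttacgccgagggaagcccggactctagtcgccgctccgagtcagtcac
Ldb3 (GRCm38.p6, chr14:34588632-34588931, minus strand): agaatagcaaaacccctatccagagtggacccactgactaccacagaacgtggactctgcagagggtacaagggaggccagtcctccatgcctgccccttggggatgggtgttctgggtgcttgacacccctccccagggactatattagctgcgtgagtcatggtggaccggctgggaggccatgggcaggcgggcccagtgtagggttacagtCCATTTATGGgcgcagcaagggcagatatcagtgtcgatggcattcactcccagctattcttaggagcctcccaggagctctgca

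The box starts 72 bases before the gene start in Egr2 and 58 in Zfp36, both immediate early genes, and 161, 227 and 35 bases before it in Myl9, Vcl and Ldb3, which encode a myosin light chain, a focal adhesion protein and a Z-line protein. On the same windows the cyclic AMP response element TGACGTCA was found in 2 of 17 immediate early and 0 of 16 contractile genes (3.42% of matched genes), the AP-1 site TGANTCA in 0 and 3 (6.37%), and the E-box CANNTG in 12 and 12 (67.7%), on either strand. A match is a description of letters and not of binding.

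Levels below are UMIs (distinct transcript tags) added up over all cells of a group, per 1000000 UMIs of that group (CPM), and intervals are exact 95% intervals that cover counting error only. Cluster 6 held 622315 UMIs in the EC-iDKO_Apoe_KO library and 1413384 in the Apoe_KO library. Its cells were deeper than the other smooth muscle cells, with median UMIs of 2471 against 747 in the EC-iDKO_Apoe_KO library and 7368 against 4133 in the Apoe_KO library. Of the EC-iDKO_Apoe_KO cells, 90.7% of cluster 6 and 31.2% of the other smooth muscle cells reached 1000 UMIs. In Apoe_KO those shares were 99.5% and 93.0%. The median mitochondrial share was 4.27% against 4.13% in EC-iDKO_Apoe_KO and 4.53% against 4.96% in Apoe_KO. A gene was called higher or lower by size alone, when its CPM ratio was at least 1.5 either way, its interval did not hold 1 and both populations together held at least 100 UMIs. Cell barcodes shared by both libraries numbered 5, none of them in cluster 6. Intervals were not adjusted for the number of genes, so some calls come from counting error alone, and the part of depth in a result was not tested beyond the values given.

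Cluster 6 expressed the whole smooth muscle marker set, with markers of blood-derived cells at low levels. All 10 smooth muscle markers were detected, and their summed level was the highest in each library among clusters with at least 50 cells, at 64553 CPM against 54727 CPM in the other smooth muscle cells of EC-iDKO_Apoe_KO and 61804 against 52496 CPM in Apoe_KO. Macrophage markers summed to 4.82 CPM with 9 of 12 at 0 in EC-iDKO_Apoe_KO cluster 6, against 18.4 CPM in its other smooth muscle cells. In Apoe_KO they summed to 40.3 CPM with 3 of 12 at 0, against 143 CPM. T cell markers were at 0 for 7 of 8 in each library. Endothelial markers summed to 435 CPM with 5 of 12 at 0, against 773 CPM (cluster 15 alone held 18206 CPM, and the median of the clusters other than 6 was 434 CPM), and in Apoe_KO to 351 CPM with 6 of 12 at 0, against 361 CPM. Fibroblast markers, several of which smooth muscle also expresses, summed to 1011 CPM against 977 CPM, and in Apoe_KO to 993 against 1339 CPM. Pericyte markers summed to 1379 CPM against 2253 CPM and in Apoe_KO to 2082 against 3290 CPM, with Rgs5 the only member called (lower in both libraries) and median log2 ratios of 0.21 and -0.039. Adipocyte markers summed to 4.82 CPM against 992 CPM in EC-iDKO_Apoe_KO, where cluster 15 held 51904 CPM and the median of the clusters other than 6 was 30.4 CPM, and in Apoe_KO to 2.83 against 3.75 CPM. Chondrocyte-like markers summed to 57.8 CPM against 89.4 CPM and in Apoe_KO to 127 against 312 CPM, erythroid ones to 8.03 against 67.8 CPM and 2.12 against 4.16 CPM, and cycling ones to 61.1 against 101 CPM and 73.6 against 106 CPM.

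The 4 genes that lend the cluster its working name, Carmn, Trnp1, Sema3e and Rtn2, stood out unevenly. Carmn had 71 UMIs and 114 CPM in EC-iDKO_Apoe_KO cluster 6, against 204 UMIs and 41.2 CPM in the other smooth muscle cells, a ratio of 2.77 (2.08 to 3.65) that was called higher. In Apoe_KO it had 60 UMIs and 42.5 CPM in cluster 6, against 234 UMIs and 32.5 CPM, a ratio of 1.31 (0.968 to 1.74) that was not called. Carmn was therefore called higher in EC-iDKO_Apoe_KO and not in Apoe_KO, and it did not set the cluster apart from all others. Cluster 4 reached 110 CPM (74.4 to 157) in EC-iDKO_Apoe_KO, an interval that overlaps the 89.1 to 144 CPM of cluster 6, and in Apoe_KO cluster 4 was the highest at 76.2 CPM (53.6 to 105) with cluster 6 second at 42.5 CPM (32.4 to 54.6). The name Carmn-high is thus not borne out in Apoe_KO, and the cells are called smooth muscle cluster 6 here.

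Trnp1, which encodes a nuclear protein bound to chromatin, had 20.9 CPM in EC-iDKO_Apoe_KO cluster 6 against 11.3 CPM (13 and 56 UMIs, below the 100 needed for a call). In Apoe_KO it had 33.96 CPM against 19.4 CPM and was called higher, with a ratio of 1.75 (1.23 to 2.44). Sema3e, a secreted semaphorin that signals through plexin D1, was not called in either library, at 33.7 CPM against 20.4 CPM in EC-iDKO_Apoe_KO (1.65, 0.982 to 2.67) and 30.4 against 22.3 CPM in Apoe_KO (1.36, 0.949 to 1.92). Rtn2, a reticulon of the endoplasmic reticulum, had 19.3 CPM against 17.0 CPM in EC-iDKO_Apoe_KO and 41.0 against 23.7 CPM in Apoe_KO, where it was called higher at 1.73 (1.26 to 2.34). The 4 genes together summed to 188 CPM in EC-iDKO_Apoe_KO, first of the 12 clusters with at least 50 cells, and to 148 CPM in Apoe_KO, second of 11 after cluster 4 at 165 CPM.

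**Figure D1:**
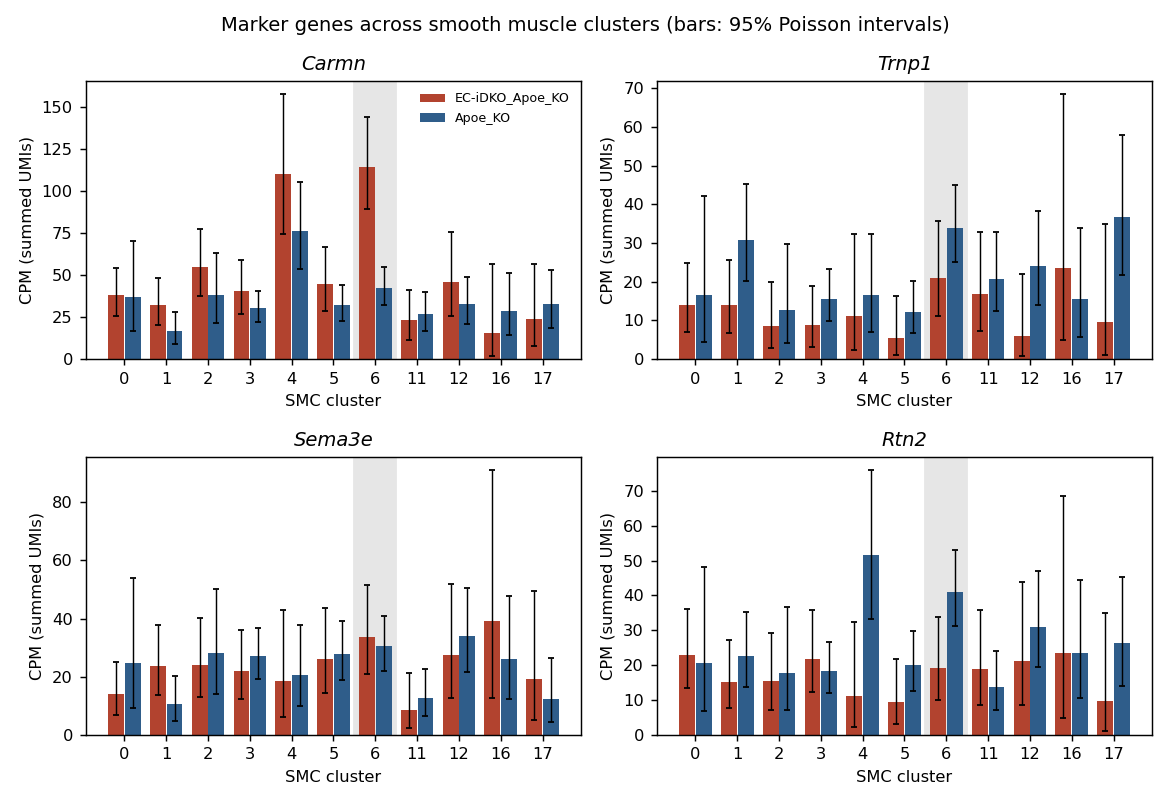
Levels of Carmn, Trnp1, Sema3e and Rtn2 (CPM, linear axis) in the 11 smooth muscle clusters with at least 50 cells in both libraries, EC-iDKO_Apoe_KO left of Apoe_KO, with bars for 95% Poisson intervals of the counts. Carmn in EC-iDKO_Apoe_KO was highest in clusters 6 (114 CPM) and 4 (110 CPM), and in Apoe_KO in cluster 4 (76.2 CPM).

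Within the cluster, Carmn was seen in few cells and mostly as a single molecule. In EC-iDKO_Apoe_KO, 55 of 246 cells had a Carmn UMI (22.4%), 45 of them exactly 1 and none more than 5, against 186 of 4161 other smooth muscle cells (4.47%). In Apoe_KO, 50 of 187 cells had one (26.7%), 42 of them exactly 1, against 190 of 1349 (14.1%). Cells were then thinned to 1000 UMIs. Shallower cells were left out, 2861 of the 4161 other smooth muscle cells in EC-iDKO_Apoe_KO. The share was 11.2% (7.39 to 16.1) of 223 cells against 3.54% (2.60 to 4.69) of 1300 in EC-iDKO_Apoe_KO. In Apoe_KO it was 3.76% (1.53 to 7.60) of 186 against 3.19% (2.29 to 4.32) of 1254. At equal depth the Apoe_KO cluster was thus not distinguishable from its neighbours in Carmn, whereas in EC-iDKO_Apoe_KO the intervals did not meet. In the immune class, which should lack Carmn, 0 of 16 thinned EC-iDKO_Apoe_KO cells and 0 of 162 thinned Apoe_KO cells had it. The upper interval limits of these shares were 20.6% and 2.25%. Before thinning, 1 of 61 and 8 of 167 immune cells had it. The EC-iDKO_Apoe_KO limit, from so few immune cells, lies above the share in cluster 6.

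The contractile programme was high in cluster 6, by small steps in nearly every gene. The 20 contractile genes summed to 84628 CPM in EC-iDKO_Apoe_KO, the highest of 12 clusters with cluster 11 next at 81512 CPM, and to 83011 CPM in Apoe_KO, the highest of 11 with cluster 11 next at 78533 CPM. Of 19 members with enough UMIs in both libraries, 16 had a higher level in cluster 6 than in the other smooth muscle cells in both. None was called higher, however, beside 2.21% of all genes in EC-iDKO_Apoe_KO and 1.4% in Apoe_KO. The median log2 ratio of the list was 0.27 in EC-iDKO_Apoe_KO and 0.22 in Apoe_KO, beside -0.0027 and 0.0060 over all genes measured likewise. Only Des, the intermediate filament desmin, was called lower, in Apoe_KO with 43.2 CPM against 75.8 CPM, or 1.76-fold lower. Its EC-iDKO_Apoe_KO levels were 85.2 and 103 CPM.

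Myh11, the smooth muscle myosin heavy chain, had 8396 CPM in EC-iDKO_Apoe_KO cluster 6 against 5853 CPM, a ratio of 1.43 (1.39 to 1.48), and 7488 against 5995 CPM in Apoe_KO, a ratio of 1.25 (1.22 to 1.28). Acta2, smooth muscle actin, had 26258 CPM against 22574 CPM (1.16) and in Apoe_KO 26854 against 22633 CPM (1.19). Cald1, caldesmon, which binds actin and tropomyosin, stood at 4724 CPM against 3509 CPM (1.35) and in Apoe_KO 5682 against 4363 CPM (1.30). All 3 were higher in cluster 6 in both libraries, by more in EC-iDKO_Apoe_KO for Myh11, whose intervals do not meet. Lmod1, leiomodin, which nucleates actin filaments, had 1077 CPM against 808 CPM (1.33) and 1142 against 873 CPM in Apoe_KO (1.31), and Synpo2, an actin bundling protein, 1040 against 711 CPM (1.46) and 931 against 775 CPM in Apoe_KO (1.20). Of the genes whose promoters are printed above, Myl9 had 5533 against 4712 CPM and in Apoe_KO 5994 against 4839 CPM, Vcl 617 against 583 CPM and 587 against 588 CPM, and Ldb3 127 against 108 CPM and 166 against 150 CPM, so that the steps differed among the CArG-holding genes. Myocd, which encodes myocardin itself, had 273 CPM against 230 CPM in EC-iDKO_Apoe_KO (1.19, 1.01 to 1.397) and 311 against 324 CPM in Apoe_KO (0.962), and was not called.

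The genes most clearly low in the cluster were the immediate early genes. Of 22 listed, 21 were in the count table and all 21 lay lower in cluster 6 than in the other smooth muscle cells in both libraries. In EC-iDKO_Apoe_KO 16 were called lower, where 4.46% of all 6285 genes were, and in Apoe_KO 19, where 4.48% of 7494 were; 16 were called lower in both, where 1.55% of 6205 genes were. The median log2 ratio was -0.91 in EC-iDKO_Apoe_KO and -0.98 in Apoe_KO. Their sum came to 6842 CPM in EC-iDKO_Apoe_KO, where 1 of 12 clusters was lower (cluster 15, 5765 CPM) and cluster 3 was highest at 19818 CPM. In Apoe_KO the sum was 8030 CPM, the lowest of 11 clusters, with cluster 4 next at 9263 CPM and cluster 3 highest at 22366 CPM.

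Fos, a subunit of the AP-1 factor, had 1615 CPM in EC-iDKO_Apoe_KO cluster 6 against 3059 CPM, and 1841 against 3536 CPM in Apoe_KO, ratios of 0.528 and 0.521. Egr1, a zinc finger factor induced within minutes, had 897 CPM against 1955 CPM (2.18-fold lower) and in Apoe_KO 1496 against 3246 CPM (2.17-fold lower). Both were thus close to equally low in both libraries. Atf3, a stress-induced factor, had 252 CPM against 734 CPM and 503 against 1395 CPM in Apoe_KO, 2.91-fold and 2.77-fold lower. Ier3, an immediate early regulator of survival, had 273 CPM against 902 CPM and 96.9 against 301 CPM in Apoe_KO, 3.30-fold and 3.11-fold lower. Junb, another AP-1 subunit, had 411 CPM against 882 CPM and 107 against 310 CPM in Apoe_KO, 2.14-fold and 2.90-fold lower, and its locus overlaps Prdx2 on the other strand. Of the promoters printed above, Egr2 had 4 UMIs and 6.43 CPM against 29.1 CPM in EC-iDKO_Apoe_KO and 7.08 against 15.5 CPM in Apoe_KO (4.52-fold and 2.197-fold lower), and Zfp36, an RNA-binding protein that destabilises inflammatory transcripts, 109 against 234 CPM and 83.5 against 161 CPM (2.14-fold and 1.93-fold lower). Jund and Btg2 were called in neither library, and Klf2, Klf6 and Ccn1 in Apoe_KO only.

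The same contrast was present cell by cell at equal depth. Cells were thinned to 1000 UMIs and shallower cells were left out. This kept 223 cluster 6 cells and 1300 other smooth muscle cells of EC-iDKO_Apoe_KO, and 186 and 1254 of Apoe_KO. The median cluster 6 cell of EC-iDKO_Apoe_KO had 5 immediate early UMIs (quartiles 3 and 9) against 12 (9 and 17) in the other cells kept. In Apoe_KO the numbers were 7 (4 and 10) against 15 (9 and 21). Contractile UMIs numbered 83 (72 and 93) against 71 (58 and 83) in EC-iDKO_Apoe_KO and 84.5 (71 and 93) against 66 (53 and 78) in Apoe_KO. The quartile ranges of cluster 6 and of its neighbours overlapped for the contractile genes, and for the immediate early genes touched at 9 in EC-iDKO_Apoe_KO and overlapped by 1 UMI in Apoe_KO.

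Genes that share induction by stress with the immediate early group were low as well. Of 16 heat shock genes, 15 lay lower in cluster 6 in both libraries, 5 were called lower in EC-iDKO_Apoe_KO, 4 in Apoe_KO and 3 in both (over all genes 4.46%, 4.48% and 1.55%), with list medians of -0.48 and -0.44 on the log2 scale. Hspa1a, an inducible chaperone of the Hsp70 family, had 212 CPM against 485 CPM and 935 against 1855 CPM in Apoe_KO, 2.29-fold and 1.98-fold lower; its near-identical paralog Hspa1b, with which it may share reads, had 116 against 283 CPM and 872 against 1663 CPM. Dnajb1, a cochaperone of Hsp70, had 77.1 CPM against 141 CPM and 336 against 750 CPM in Apoe_KO. Of 15 apoptosis and p53 genes, 4 were called lower in each library and 3 in both, against the same shares over all genes. These were the growth arrest genes Cdkn1a, with 135 CPM against 377 CPM and 126 against 274 CPM in Apoe_KO, Gadd45b, with 789 against 1970 CPM and 299 against 1054 CPM, and Gadd45g, with 355 against 882 CPM and 328 against 780 CPM.

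Most genes of the modulated state were lower too. Their summed level ranked 9 of 12 clusters in EC-iDKO_Apoe_KO, at 15143.5 CPM beside a median of 17848 CPM over the others. In Apoe_KO it was the lowest of 11, at 12650.5 CPM. Of 16 genes, 12 had enough UMIs in EC-iDKO_Apoe_KO and 13 in Apoe_KO, and 5 were called lower in EC-iDKO_Apoe_KO, 8 in Apoe_KO and 5 in both (over all genes 4.46%, 4.48% and 1.55%), with list medians of -0.51 and -0.74 on the log2 scale. Spp1, osteopontin, had 9.64 CPM against 24.4 CPM and 34.7 against 92.1 CPM in Apoe_KO. Vcam1, an adhesion molecule for leukocytes, had 38.6 CPM against 129 CPM and 23.3 against 46.9 CPM in Apoe_KO, 3.35-fold and 2.01-fold lower. Timp1, an inhibitor of matrix metalloproteinases, had 14.5 CPM against 45.0 CPM and 9.20 against 23.5 CPM in Apoe_KO. The other members called in both were Dcn, a small proteoglycan at 8.03 CPM against 21.0 CPM and 66.5 against 116 CPM in Apoe_KO, and Cytl1, a secreted cytokine-like protein at 3.21 against 28.3 CPM and 19.8 against 36.6 CPM. In EC-iDKO_Apoe_KO cluster 6, 1 UMI is 1.61 CPM, so its levels of Spp1, Timp1, Dcn and Cytl1 rest on only a few UMIs each. Of 16 wall collagens and 12 elastic fibre genes measured in both libraries, none was called in both. This is near the share over all genes, 1.55% lower and 0.0322% higher. The collagen median was 0.14 in EC-iDKO_Apoe_KO, with 11 of 16 above 0 and none called. In Apoe_KO it was -0.30, with 15 of 16 below 0 and 2 called lower. Elastic fibre medians were -0.28 and -0.11.

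Signalling lists were mixed, with the TGF-beta and BMP list lying lower in both libraries. The TGF-beta and BMP list had median log2 ratios of -0.27 in EC-iDKO_Apoe_KO and -0.36 in Apoe_KO, with 17 and 16 of 22 members below 0. The Notch list had medians of -0.14 and -0.032, with 3 of 8 and 1 of 9 members called lower (over all genes 4.46% and 4.48%). Of its 11 measured members, 6 lay below 0 in EC-iDKO_Apoe_KO and 8 in Apoe_KO. In the TGF-beta and BMP list of 22 genes, with 18 and 19 at enough UMIs, 5 were called lower in EC-iDKO_Apoe_KO, 4 in Apoe_KO and 3 in both (over all genes 4.46%, 4.48% and 1.55%), among them the feedback inhibitor Smad7 (48.2 CPM against 88.0 CPM, and 41.7 against 68.8 CPM in Apoe_KO) and Id3, a BMP target (680 against 1225 CPM, and 359 against 630 CPM). Hes1, a target gene of Notch, had 37.0 CPM against 91.5 CPM and 50.2 against 137 CPM in Apoe_KO, 2.47-fold and 2.72-fold lower, whereas no other Notch gene was called in both. Rgs5, which limits signalling of vasoactive receptors and marks pericytes, had 363 CPM against 1377 CPM and 1165 against 2351 CPM in Apoe_KO, 3.79-fold and 2.02-fold lower. It was the only member called in the vasoactive receptor and cyclic nucleotide list, 1 of 11 and 1 of 12 (over all genes 4.46% and 4.48% lower). The list medians were 0.097 and 0.077. Of 11 members with enough UMIs in both libraries, 6 lay above 0 in both and 5 below 0 in both. Cluster 5 held the highest Rgs5 level, at 5643 CPM in EC-iDKO_Apoe_KO and 6647 CPM in Apoe_KO, beside a median over the clusters other than 6 of 967 and 1586 CPM. Neat1, a nuclear long noncoding RNA, had 479 CPM against 968 CPM and 323 against 730 CPM in Apoe_KO. Genes of oxidative phosphorylation gave no call among 22 in either library. Over all genes 2.21% were called higher and 4.46% lower in EC-iDKO_Apoe_KO, and 1.4% and 4.48% in Apoe_KO. Their list medians were 0.05 and 0.17, with 14 and 22 of 22 members above 0. Their sum ranked 3 of 12 clusters in EC-iDKO_Apoe_KO and 2 of 11 in Apoe_KO.

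**Figure D2:**
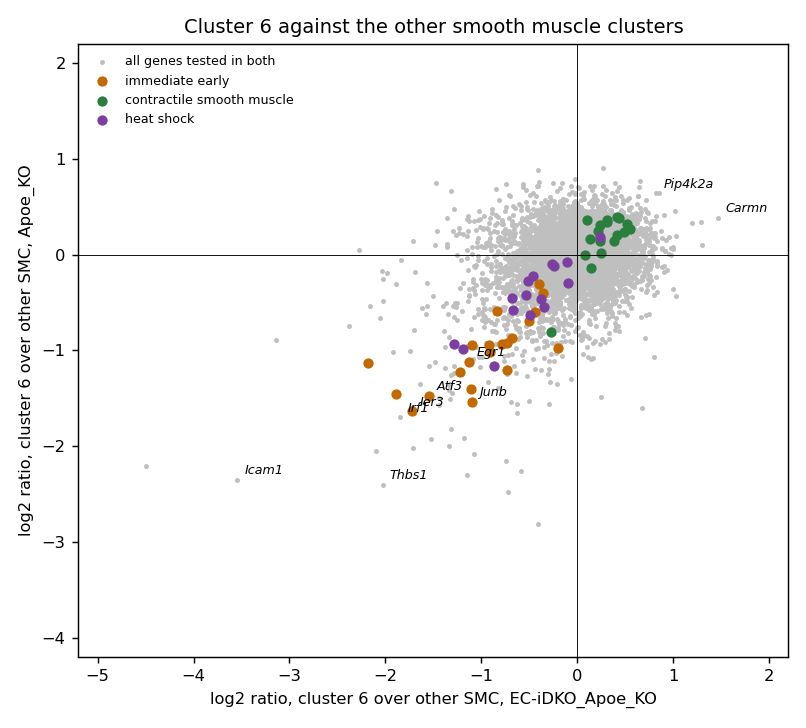
Log2 ratio of CPM in cluster 6 over the other smooth muscle clusters, EC-iDKO_Apoe_KO on x and Apoe_KO on y, 1 point per gene, with immediate early, contractile and heat shock genes coloured. All 21 immediate early genes lie below 0 on both axes, and the contractile genes lie close to 0 and mostly above it on both axes.

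By the fixed ranking over all genes, 96 genes were called lower in both libraries and 2 higher (0.0322% of 6205). The higher ones were Pip4k2a, a phosphoinositide kinase, with 70.7 CPM against 40.0 CPM in EC-iDKO_Apoe_KO (1.77, 1.25 to 2.46) and 74.3 against 47.6 CPM in Apoe_KO (1.56, 1.24 to 1.95), and Zfp609, a zinc finger protein, with 38.6 against 21.4 CPM (1.80, 1.11 to 2.83) and 29.7 against 19.01 CPM (1.56, 1.08 to 2.22). With cells thinned to 1000 UMIs neither gene was called in either library, and Zfp609 in Apoe_KO turned to a log2 ratio of -0.95 on 28 UMIs; among cells with at least 1000 UMIs Zfp609 lost its EC-iDKO_Apoe_KO call, at 95 UMIs. Pip4k2a was the highest of all clusters compared in each library, but in EC-iDKO_Apoe_KO another cluster reached nearly the same level. The highest other cluster had 70.3 CPM in EC-iDKO_Apoe_KO and 62.3 CPM in Apoe_KO. The 10 ranked lowest included inflammatory genes at only a few UMIs. Icam1, an adhesion molecule for leukocytes, had 2 UMIs and 3.21 CPM in EC-iDKO_Apoe_KO cluster 6 against 37.6 CPM (ratio 0.0856, 0.0103 to 0.314), and 4 UMIs and 2.83 CPM in Apoe_KO against 14.4 CPM (0.196, 0.0525 to 0.517). Cxcl1, a neutrophil chemokine, had 1 UMI and 1.61 CPM against 36.3 CPM, and 8 UMIs and 5.66 CPM in Apoe_KO against 26.1 CPM. Cluster 15 of EC-iDKO_Apoe_KO held 814 CPM of Cxcl1 beside a median of 25.6 CPM over the clusters other than 6, and without clusters 15 and 18 the log2 ratio was -3.71, against -4.50 with them; Icam1 then lost its Apoe_KO call, at 89 UMIs. Irf1, an interferon-induced factor, had 62.7 CPM against 225 CPM and 20.5 against 66.5 CPM in Apoe_KO, 3.60-fold and 3.24-fold lower. The matrix glycoprotein Thbs1 had 9.64 CPM against 39.4 CPM and 10.6 against 56.2 CPM in Apoe_KO, the membrane protein Emp1 8.03 against 26.2 CPM and 6.37 against 25.8 CPM, and the growth factor-induced oncogene Myc 6.43 against 23.8 CPM and 5.66 against 15.5 CPM. Ier3 and Atf3, described above, were also among the 10, as were C3 and Rian. Complement C3 had 8.03 CPM against 34.3 CPM and 3.54 against 14.7 CPM in Apoe_KO. Its high level elsewhere in EC-iDKO_Apoe_KO came largely from cluster 15, at 1335 CPM beside a median of 6.82 CPM over the clusters other than 6. Without clusters 15 and 18 its EC-iDKO_Apoe_KO log2 ratio was -0.27 and not called. In Apoe_KO cluster 2 was highest for C3, at 58.5 CPM, and without clusters 15 and 18 C3 was still called lower there (log2 ratio -1.94). Rian, an imprinted long noncoding RNA, had 11.2 CPM against 32.3 CPM and 19.1 against 72.6 CPM in Apoe_KO, with 625 and 688 CPM in cluster 16 beside medians of 19.3 and 36.5 CPM. Calls in opposite directions in the libraries were given by 5 of 6205 genes (0.0806%).

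The clusters most like cluster 6, by the Spearman correlation of log2(CPM + 1) over 8977 genes averaged over the libraries, were cluster 5 (0.939), cluster 3 (0.934) and cluster 11 (0.930). Against cluster 5, 4 of 1865 genes were called higher in both libraries (0.214%) and 31 lower (1.66%). Sparcl1, a matricellular protein, had 265 CPM in cluster 6 against 94.8 CPM in cluster 5 of EC-iDKO_Apoe_KO, and 326 against 132 CPM in Apoe_KO. Npy1r, a neuropeptide Y receptor that mediates vasoconstriction, had 272 against 171 CPM and 252 against 158 CPM. Sphkap, an anchoring protein of protein kinase A, had 151 against 18.6 CPM and 76.4 against 38.9 CPM. Among the genes lower than in cluster 5 were Rgs5, 363 against 5643 CPM and 1165 against 6647 CPM in Apoe_KO, and fibronectin, Fn1, 1298 against 4046 CPM and 1240 against 3018 CPM. Against cluster 3, 6 of 2138 genes were called higher in both (0.281%) and 93 lower (4.35%). These 93 included Egr1, with 897 CPM in cluster 6 against 3506 CPM in cluster 3 of EC-iDKO_Apoe_KO and 1496 against 5109 CPM in Apoe_KO, and Irf1, with 62.7 against 391 CPM and 20.5 against 115 CPM. S100a4 and Crip1, small calcium- and zinc-binding proteins, were among the 6 higher, S100a4 with 275 against 147 CPM and 301 against 163 CPM, and Crip1 with 619 against 378 CPM and 1015 against 657 CPM. Against cluster 11, the nearest in contractile level, 5 of 1776 genes were higher in both (0.282%) and 61 lower (3.43%). Dnajb1, Atf3 and Gadd45g were 3.74-fold, 4.26-fold and 3.82-fold lower in EC-iDKO_Apoe_KO and 3.67-fold, 4.25-fold and 3.56-fold lower in Apoe_KO. Sgcd, a sarcoglycan of the dystrophin complex, had 138 CPM in cluster 6 against 83.7 CPM in cluster 11 and 101 against 66.9 CPM in Apoe_KO, and Kif1c, a kinesin motor, 191 against 100 CPM and 173 against 113 CPM. Summed immediate early genes came to 6842 CPM in cluster 6 against 14261 CPM in cluster 11 of EC-iDKO_Apoe_KO and 8030 against 18743 CPM in Apoe_KO, and summed heat shock genes to 8582 against 18010 CPM and 14155 against 27989 CPM.

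Cluster 6 took a smaller share of smooth muscle cells in EC-iDKO_Apoe_KO, but the order turned round among deeper cells. It held 5.58% (exact Clopper-Pearson interval 4.92 to 6.30) of smooth muscle cells in EC-iDKO_Apoe_KO against 12.2% (10.6 to 13.9) in Apoe_KO. Among cells with at least 1000 UMIs the shares were 14.6% (12.9 to 16.5; 223 of 1523 cells) and 12.9% (11.2 to 14.8; 186 of 1440), intervals that overlap. Of all cells the shares were 4.48% and 7.70%, and of smooth muscle cells under 10% mitochondrial UMIs 5.85% and 14.1%. Genotype and library cannot be told apart, and the bead step named in the protocol can also set shares of all cells.

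**Figure D3:**
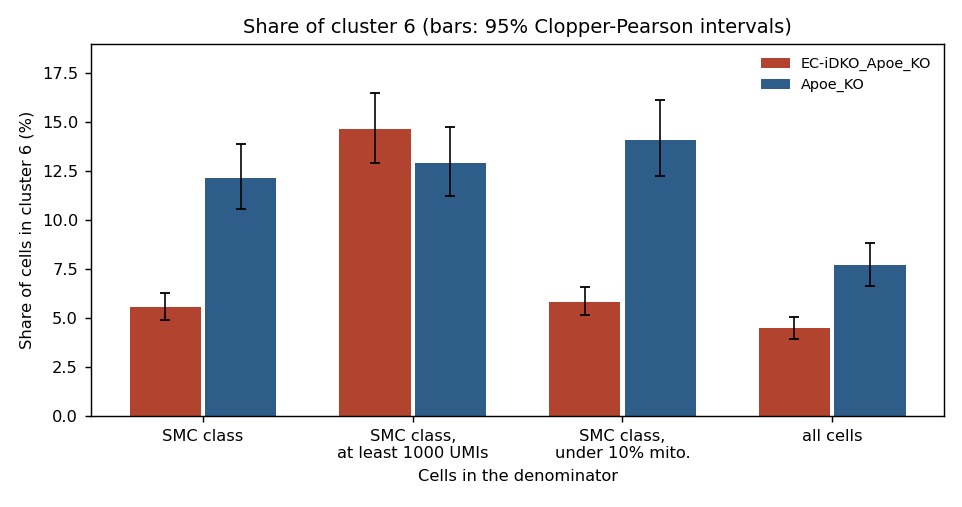
Percent of cells in cluster 6, EC-iDKO_Apoe_KO left of Apoe_KO, for 4 denominators, with bars for exact Clopper-Pearson 95% intervals. The share is lower in EC-iDKO_Apoe_KO for 3 denominators and 14.6% against 12.9% among smooth muscle cells with at least 1000 UMIs.

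Between genotypes, the genes with the most extreme ratios in the cluster included chaperone, respiratory chain and immediate early genes. Of 3087 genes, 230 were called higher in EC-iDKO_Apoe_KO than in Apoe_KO within cluster 6 (7.45%) and 272 lower (8.81%), while in the other smooth muscle cells 9.88% of 8616 genes were higher and 6.73% lower. Of the 24 genes with the most extreme ratios, 22 were called the same way in the other smooth muscle cells. In 9 of the 24 the ratio of ratios between cluster 6 and the other cells was called (over all genes 2.04% higher and 2.17% lower). The 24 were picked by their ratio in cluster 6, which also enters the ratio of ratios, so these counts describe the picked genes only. The targeted genes are deleted in endothelium, and 3' tags do not read the deleted exons. In cluster 6, Epn1 had 35.4 CPM in EC-iDKO_Apoe_KO and 30.4 CPM in Apoe_KO, and Epn2 108 and 82.8 CPM, neither called.

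Counts assigned to Lars2, the gene of a mitochondrial leucyl-tRNA synthetase, had the highest ratio. They stood at 667 CPM in EC-iDKO_Apoe_KO against 72.9 CPM in Apoe_KO cluster 6, or 9.15 (7.36 to 11.5), beside 5.82 in the other smooth muscle cells. Whether all these tags came from the synthetase transcript was not tested. Hspb7, a small heat shock protein of muscle, had 194 against 38.2 CPM (5.09, 3.66 to 7.15), and Cdo1, a cysteine dioxygenase, 310 against 68.6 CPM (4.52), beside 4.42 and 5.14 in the other cells. The immediate early genes Ier2 and Junb had 238 against 50.9 CPM (4.67) and 411 against 107 CPM (3.85), beside 3.80 and 2.85. Higher values also held for Trp53, which encodes p53, with 124 against 35.4 CPM (3.50), Nr1d1, a clock repressor, with 104 against 30.4 CPM (3.43), and Puf60, a splicing factor, with 106 against 34.7 CPM (3.06). Ccdc85b, at 109 against 28.3 CPM (3.86), overlaps Fosl1 on the other strand, as Nr1d1 overlaps Thra. Dohh, which completes the hypusine residue of a translation factor, had 111 against 33.3 CPM (3.33), and Tnnt2, a troponin of striated muscle, 124 against 32.5 CPM (3.80), beside 1.53 and 1.78 in the other cells.

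At the other end stood the inducible chaperones. Hspa1b had 116 CPM in EC-iDKO_Apoe_KO against 872 CPM in Apoe_KO (7.53-fold lower; ratio 0.133, 0.103 to 0.168), Hspa1a 212 against 935 CPM (4.41-fold lower), Dnajb1 77.1 against 336 CPM (4.36-fold lower) and Dnajb4, another cochaperone, 272 against 806 CPM (2.97-fold lower). Over the heat shock list 9 of 16 genes were called lower and 1 higher (over all genes 8.81% and 7.45%), with a median log2 ratio of -0.66 in cluster 6 and -0.65 in the other smooth muscle cells, beside 0.031 over all genes in cluster 6. Among single genes of the respiratory chain, lower levels were seen in Atp5k at 51.4 against 200.2 CPM (3.89-fold), Ndufa3 at 28.9 against 100.5 CPM (3.47-fold; it overlaps Tfpt on the other strand) and Ndufaf8 at 27.3 against 79.9 CPM (2.93-fold). Of the 22 genes of the oxidative phosphorylation list 6 were called lower and 1, Cox5a, higher (over all genes 8.81% and 7.45%). In the other smooth muscle cells 6 were likewise called lower and 1 higher (over all genes 6.73% and 9.88%). The list median was -0.25 in cluster 6 and -0.024 in the other smooth muscle cells. Thoc7, of the mRNA export complex and overlapping Atxn7 on the other strand, had 28.9 against 117 CPM, Otud1, a deubiquitinase, 30.5 against 122 CPM, and Abra, an activator of serum response factor signalling, 20.9 against 62.3 CPM. Rgs5 had 363 against 1165 CPM (3.21-fold lower) and Igfbp5, a carrier of insulin-like growth factor, 35.4 against 103 CPM (2.90-fold lower).

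The lists differed in direction. Contractile genes had a median log2 ratio of 0.11 in cluster 6 and -0.01 in the other smooth muscle cells, with Des the only member called, higher in EC-iDKO_Apoe_KO. The immediate early genes were split, with 4 of 17 called higher, 3 lower and a median of -0.19. In the ER stress list, Hspa5, a chaperone of the endoplasmic reticulum, had 1183 CPM in EC-iDKO_Apoe_KO against 688 CPM, and 4 of 11 members were called higher and 1, Atf4, lower, with a median of 0.49 in cluster 6 and 0.49 in the other smooth muscle cells. In the apoptosis and p53 list 3 of 8 were called higher, namely Trp53, Gadd45b and Bax, an executioner of apoptosis with 125 against 76.4 CPM, and 13 of 14 measured members lay above 0, with a median of 0.44 in cluster 6 and 0.47 in the other smooth muscle cells. In the elastic fibre list 3 of 11 were called lower, with a median of -0.43 and -0.23 in the other cells. They were elastin, Eln, at 797 CPM in EC-iDKO_Apoe_KO against 1345 CPM, and the crosslinking enzymes Lox and Loxl1, at 109 against 169 CPM and 127 against 217 CPM. Over all genes 7.45% were called higher and 8.81% lower.

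The ratio of genotype ratios showed where cluster 6 was unlike the other smooth muscle cells. Of 3087 genes, 63 had a higher genotype ratio in cluster 6 (2.04%) and 67 a lower one (2.17%). The highest were Dohh at 2.18 (1.46 to 3.27), Tnnt2 at 2.14 (1.46 to 3.14), Carmn at 2.12 (1.43 to 3.13), the calcium-activated chloride channel gene Ano1 at 2.05 (1.36 to 3.08) and the phosphatase gene Ppef1 at 1.93 (1.32 to 2.83). Carmn itself was 2.69 times (1.88 to 3.86) as high in EC-iDKO_Apoe_KO as in Apoe_KO within cluster 6, against 1.27 (1.05 to 1.54) in the other smooth muscle cells. Ano1 had 77.1 CPM against 63.2 CPM in EC-iDKO_Apoe_KO and 41.7 against 70.1 CPM in Apoe_KO. Another channel gene, the potassium channel Kcnj15, had 146 against 88.6 CPM in EC-iDKO_Apoe_KO, called higher at 1.65 (1.30 to 2.07), and 74.997 against 80.1 CPM in Apoe_KO. Tnnt2 in the other Apoe_KO cells was concentrated in cluster 17, at 558 CPM beside a median of 32.5 CPM.

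The lowest ratios of ratios were those of Igfbp5 at 0.300 (0.188 to 0.477), the respiratory assembly factor Ndufaf8 at 0.401 (0.235 to 0.684), the secretory pathway gene Yif1a at 0.471 (0.289 to 0.768), Fabp4 at 0.487 (0.398 to 0.596) and the phosphatase gene Ublcp1 at 0.499 (0.311 to 0.802). Igfbp5 was thus lower in EC-iDKO_Apoe_KO in cluster 6 while the other smooth muscle cells had a genotype ratio of 1.15. Fabp4, a fatty acid carrier of fat and endothelial cells, rests on 1 cluster: cluster 15 of EC-iDKO_Apoe_KO held 17381 CPM, and without clusters 15 and 18 the log2 ratio of ratios was 0.17 where it had been -1.04.

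**Figure D4:**
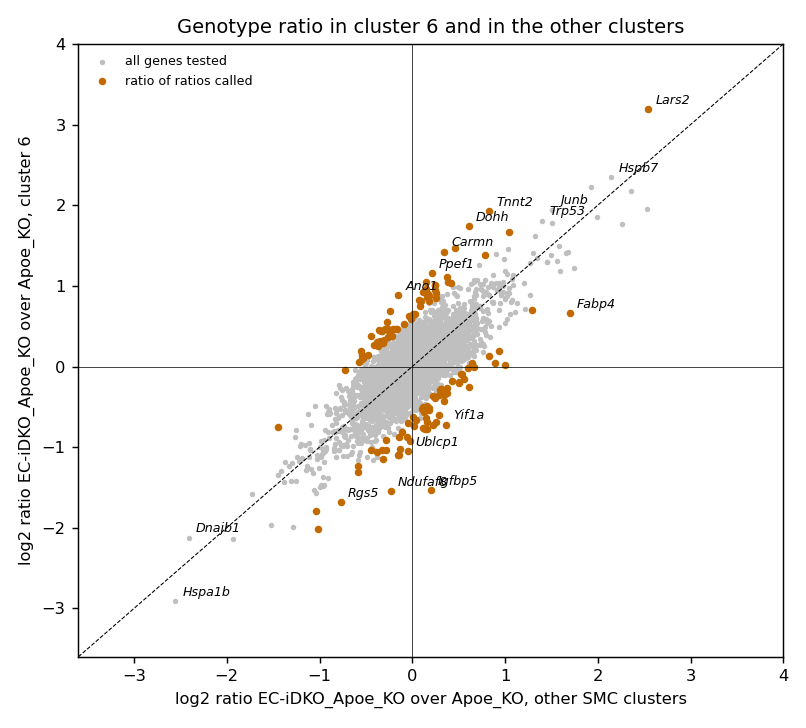
Log2 ratio of CPM in EC-iDKO_Apoe_KO over Apoe_KO, other smooth muscle clusters on x and cluster 6 on y, 1 point per gene, with genes whose ratio of ratios was called coloured and a dashed line of equal ratios. Most genes lie along the line, and Carmn lies above it with ratios of 2.69 in cluster 6 and 1.27 in the other cells.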

How the data were processed

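The data are 2 single-cell libraries of mouse aorta, 1 per genotype. Per the submitters' processing notes, Cell Ranger, Seurat and the mm10 build were used; versions, annotation and strand setting: not given in the sources used here. In the deposited table are raw counts, UMIs per gene and cell, with 14714 genes and at least 500 UMIs in every cell ahead of the authors' gene filter. The mitochondrial ratio deposited per cell is a fraction, at most 20%, and the deposited class and cluster numbers are labels of another kind ("other") that the authors assigned. All 2428 Apoe_KO barcodes were deposited as 2 copies with identical counts and were counted once. No doublet caller was run and no cell was removed.

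Counts were summed per library and population and scaled to 1000000 (CPM); the libraries held 6853185 (EC-iDKO_Apoe_KO) and 13304762 (Apoe_KO) UMIs. With 1 library per genotype and clusters made from the same values, no p-value was computed. Ratios carry exact conditional binomial intervals, levels Poisson intervals, shares Clopper-Pearson intervals and ratios of ratios intervals from the 4 counting errors, all at 95% and for counting error only. Genes at 0 would be set against a floor of 3 UMIs. List medians used members with at least 20 UMIs. The calling rule was checked on simulated counts. The named genes were the 4 markers, those called higher (at most 15) and the 10 lowest in both libraries, the 12 highest and 12 lowest genotype ratios, the 5 highest and lowest ratios of ratios and up to 4 per list, without mitochondrial, ribosomal, haemoglobin, immunoglobulin, predicted and sex-linked genes; genes outside that rule, such as those set against the 3 nearest clusters or tied to a printed promoter, were chosen after their values were seen. A few genes are not reported here. Members, lists and alternatives were chosen with earlier results of these data known. Alternatives were cells with at least 1000 UMIs, thinning to 1000 UMIs, a mitochondrial limit of 10%, 2 other scalings, a minimum of 20 UMIs, a fold of 2, leaving out clusters 15 and 18, and equal weights of clusters. Python 3.11.15, numpy 2.4.6, scipy 1.17.1, pandas 2.3.3 and matplotlib 3.10.9 were used.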

Additional observations from a re-analysis of the deposited data

Results flagged for a closer look

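A few genes lay on opposite sides in the 2 libraries when cluster 6 was set against the other smooth muscle cells; 5 of 6205 genes (0.0806%) did so by call, each with under 100 UMIs in cluster 6, and the difference between libraries was not tested over replicates. Per2, a circadian clock gene, had a log2 ratio of 0.67 in EC-iDKO_Apoe_KO (41.8 against 26.2 CPM) and -1.60 in Apoe_KO (7.08 against 21.5 CPM). Mis12, a kinetochore gene, had a log2 ratio of -1.48 in EC-iDKO_Apoe_KO (9.64 against 26.9 CPM) and 0.75 in Apoe_KO (20.5 against 12.2 CPM). Six4, a homeobox gene, had a log2 ratio of -0.70 in EC-iDKO_Apoe_KO (28.9 against 47.0 CPM) and 0.61 in Apoe_KO (29.7 against 19.4 CPM).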

How the results depend on the processing

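No paired analysis was possible because each genotype has 1 library. Of 2034 pairs of a named gene result with an alternative, 1912 stayed within their counting interval, 119 moved and 3 reversed. Reversed were Zfp609 in Apoe_KO (-0.95, against 0.64 on all UMIs) and Myc in Apoe_KO (0.17) on cells thinned to 1000 UMIs, and the ratio of ratios of Fabp4 without clusters 15 and 18 (0.17); thinning leaves few UMIs for such genes. Genes called in cluster 6 against the other smooth muscle cells numbered 419 in EC-iDKO_Apoe_KO, 207 after thinning and 147 at a fold of 2, and 441, 196 and 147 in Apoe_KO. Genotype calls within cluster 6 numbered 502, then 127 after thinning, 1040 at a minimum of 20 UMIs and 135 at a fold of 2, and ratio of ratios calls 130, 44, 439 and 10. Genes called higher in both libraries were 2, but 1 with cells of at least 1000 UMIs, 1 after thinning (neither of the 2 named), 8 at 20 UMIs and 0 at a fold of 2; those lower in both were 96, but 53 after thinning and 39 at a fold of 2. Fewer genes reach 100 UMIs after thinning, which lowers these counts by construction. Of the 10 genes named lower in both, 5 were called in both among cells of at least 1000 UMIs, 2 after thinning, 8 under 10% mitochondrial UMIs and 8 without clusters 15 and 18. The contractile median in Apoe_KO was 0.29 after thinning, and its genotype median was -0.042. The immediate early median stayed between -1.08 and -0.76 in EC-iDKO_Apoe_KO and between -1.08 and -0.93 in Apoe_KO over the alternatives run. The share of cluster 6 was 14.6% (cells of at least 1000 UMIs) and 4.48% (all cells) in EC-iDKO_Apoe_KO, and 14.1% (under 10% mitochondrial) and 7.70% (all cells) in Apoe_KO; its difference of -6.59 percentage points became 1.73 among cells of at least 1000 UMIs and -3.22 of all cells. The cause of these moves was not tested.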
